A study of Mus musculus with 4 samples.

Results

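Transcripts of B cells and of MHC class II were followed as 9 genes, taken from a list of names and looked up by symbol among the 35275 gene identifiers of a count table of sorted splenic NK cells. Their role in the data was as transcripts that an NK cell sort would carry over from other cells, a reading that was not tested. The genes fall into 5 B cell surface genes (Cd79a, Cd79b, Ms4a1, Fcer2a and Fcmr) and 4 MHC class II genes (Cd74, H2-Aa, H2-Ab1 and H2-Eb1). All 9 were found once and had counts in every library.

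The study compared NK cells from the spleens of mice labelled Irf4-/- and of WT C57BL/6 mice, with or without an intravenous injection of B16-F10 cells, a mouse melanoma line. There were 4 groups with 1 RNA sequencing library each. They were Irf4-/- mice 20 days after injection, Irf4-/- control mice that were not injected, WT mice 20 days after injection, and WT control mice that were not injected. NK cells were enriched with an EasySep isolation kit and then flow-sorted as CD3- NK1.1+ cells, a gate on a surface marker that B cells lack. The labels give neither the age of the mice, the design of the Irf4 allele nor the number of mice behind a library, so no difference below has a replicate check between animals.

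The libraries held between 15878159 and 21104881 counts, and 3 counts corresponded to between 0.142 and 0.189 CPM, a count scaled to the size of its library. Irf4 had 236 counts in the library labelled Irf4-/- injected and 188 in Irf4-/- control, against 57 in WT injected and 93 in WT control. Counts of Irf4 were thus higher under the knockout label, at a genotype log2 change of 1.72 ± 0.241 (SE) and an adjusted p of 0.0049 by edgeR's quasi-likelihood test. The deleted stretch of Irf4 is not named in the labels, so counts summed over the gene do not check the genotype, and Irf4-/- below is the label of a library. The 13 NK cell marker genes summed to between 16320 and 18050 CPM in every library. The WT injected library stood apart, with root mean square log2 differences of 0.359 to 0.399 from the other 3 libraries over 9674 genes, against 0.234 to 0.325 among those 3.

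Cd79a and Cd79b form the signalling part of the B cell receptor, and Ms4a1 encodes CD20, a B cell surface protein. Fcer2a encodes CD23, the low-affinity IgE receptor of mature follicular B cells, and Fcmr encodes a receptor for IgM. MHC class II molecules present peptides to CD4 T cells. Their alpha and beta chains assemble with the invariant chain, encoded by Cd74, and in the spleen they are abundant on B cells, dendritic cells and macrophages, with the transactivator CIITA as the main switch of their transcription.

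The antigen receptor genes were detected at low levels. Cd79a (chromosome 7, 24897381 to 24902197, plus strand, GRCm38) had 100 counts in Irf4-/- injected, 148 in Irf4-/- control, 61 in WT injected and 181 in WT control. These were deposited FPKM levels, which are counts scaled to gene length and library total, of 3.68 in Irf4-/- injected, 6.40 in Irf4-/- control, 2.25 in WT injected and 5.89 in WT control. Cd79b (chromosome 11, 106311341 to 106314762, minus strand) had 88 counts in Irf4-/- injected, 95 in Irf4-/- control, 58 in WT injected and 134 in WT control. Both genes had their lowest level in the WT injected library, and each injected library was below the control library of its genotype.

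Ms4a1 (chromosome 19, 11249675 to 11266241, minus strand) had 55 counts in Irf4-/- injected, 82 in Irf4-/- control, 30 in WT injected and 88 in WT control. An antisense gene, 4930526L06Rik, covers all of Ms4a1 but held 0 counts in the first 3 of these libraries and 2 in WT control. In CPM the order of the libraries was that of Cd79a, with both injected libraries below both controls.

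The receptors for IgE and IgM had the fewest counts of all members. Fcer2a (chromosome 8, 3681737 to 3694175, minus strand) had 9 counts in Irf4-/- injected, 65 in Irf4-/- control, 19 in WT injected and 69 in WT control. Fcmr (chromosome 1, 130865669 to 130880791, plus strand) had 15 counts in Irf4-/- injected, 47 in Irf4-/- control, 12 in WT injected and 78 in WT control. Both injected libraries were far below both controls, and the highest FPKM of a library was 8.48 times the lowest for Fcer2a and 5.74 times for Fcmr.

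H2-Aa, the alpha chain of the class II molecule I-A, and H2-Eb1, the beta chain of I-E, lie on chromosome 17 at 34282744 to 34287823 (minus strand) and 34305867 to 34316674 (plus strand). The 150 bases before the RefSeq start of each (GRCm38.p6, 5′ to 3′ along the gene's own strand) are shown because class II promoters are known for a shared array of elements, which ends in a CCAAT box bound by NF-Y. Capitals mark 6 letters, GCAACT, and 8 letters, CTGATTGG, the CCAAT box read on the other strand.
H2-Aa, chr17:34287824-34287973, minus strand: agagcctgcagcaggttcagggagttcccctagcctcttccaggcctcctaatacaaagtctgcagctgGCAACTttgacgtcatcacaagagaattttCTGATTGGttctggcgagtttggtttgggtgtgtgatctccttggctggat
H2-Eb1, chr17:34305717-34305866, plus strand: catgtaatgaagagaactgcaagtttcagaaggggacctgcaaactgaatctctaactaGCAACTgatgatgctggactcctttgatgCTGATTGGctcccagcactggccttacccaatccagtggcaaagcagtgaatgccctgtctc

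The letters were picked after these sequences were read, so their presence here is a description. GCAACT and CTGATTGG start 81 and 51 bases before the start of H2-Aa, with 24 bases between them, and 91 and 62 bases before that of H2-Eb1, with 23 between. Searched on both strands, CTGATTGG stood in 4.1% and GCAACT in 10.9% of 32851 RefSeq promoter windows of 300 bases. The pair at 24 bases was found in 1 window (0.00304%), that of H2-Aa, and at 23 bases in 2 windows (0.00609%), those of H2-Eb1 and H2-Eb2. Promoter windows were at hand for 5 of the 9 members, the others being Cd79a, Fcer2a and Fcmr. Among these 3, CTGATTGG stood in a window of Fcer2a, 178 bases before the start, and in none of the further windows of that gene. No annotated exon overlaps the H2-Aa stretch, while the H2-Eb1 stretch overlaps an exon of the antisense gene Gm20513, which had 0 counts in all 4 libraries.

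The class II chains were more abundant per length than the B cell surface genes and varied less. H2-Aa had 498 counts in Irf4-/- injected, 451 in Irf4-/- control, 418 in WT injected and 515 in WT control. H2-Eb1 had 521 counts in Irf4-/- injected, 485 in Irf4-/- control, 420 in WT injected and 544 in WT control. H2-Ab1, the beta chain of I-A (chromosome 17, 34257689 to 34269419, plus strand), had 670 counts in Irf4-/- injected, 602 in Irf4-/- control, 499 in WT injected and 718 in WT control. In CPM, all 3 chains were lowest in WT injected and highest in Irf4-/- control, and the highest FPKM was only 1.27 to 1.42 times the lowest.

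Cd74, the invariant chain gene (chromosome 18, 60803848 to 60812652, plus strand) had 1832 counts in Irf4-/- injected, 1593 in Irf4-/- control, 1108 in WT injected and 1613 in WT control. Its FPKM was 69.7 in Irf4-/- injected, 71.2 in Irf4-/- control, 42.2 in WT injected and 54.2 in WT control, so that both libraries labelled Irf4-/- were above both WT libraries. In each library 89.9% to 94.6% of the detected genes had a lower FPKM than Cd74.

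**Figure D1:**
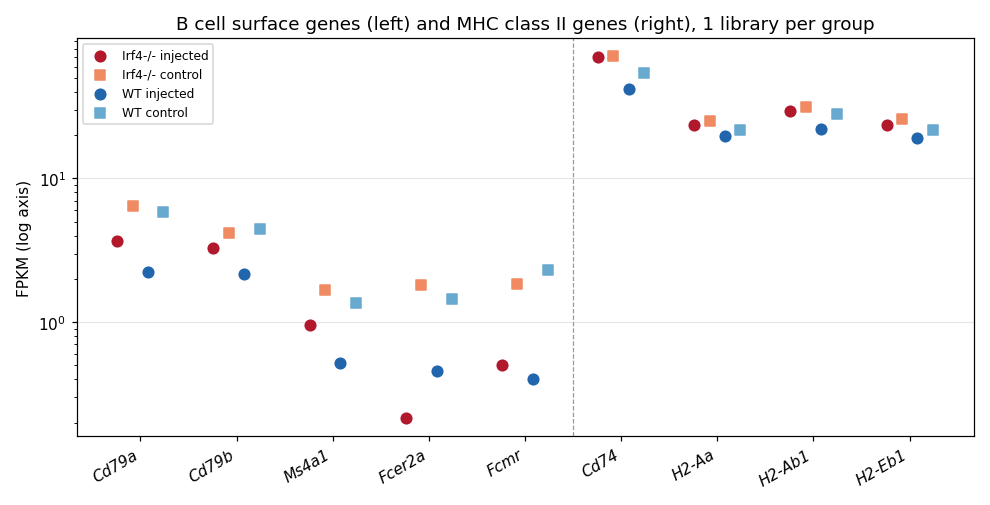
Deposited FPKM of the 9 genes in the 4 libraries, on a log axis, with 1 point a library and no error bar because each group has 1 library. The 4 class II genes lie between 19.0 and 71.2 FPKM, and the 5 B cell surface genes between 0.215 and 6.40 FPKM.

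The order of mean FPKM over the 4 libraries was Cd74 at 59.3, H2-Ab1 at 27.8, H2-Eb1 at 22.6, H2-Aa at 22.5, Cd79a at 4.55, Cd79b at 3.52, Fcmr at 1.27, Ms4a1 at 1.13 and Fcer2a at 0.989. The ranges over the libraries overlapped between H2-Ab1, H2-Eb1 and H2-Aa, among Cd79a, Cd79b and Fcmr, and among Fcmr, Ms4a1 and Fcer2a. Cd74 lay above every other member in every library, and each class II gene lay above every B cell surface gene.

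The first question was how NK cell samples of injected mice differed from those of mice that were not injected. Fcer2a and Fcmr fell with injection over the 4 libraries, with log2 changes of -2.28 ± 0.442 and -2.18 ± 0.408 (SE) at adjusted p of 0.048 and 0.0429 by edgeR's quasi-likelihood test with genotype and injection as terms. Of all 11998 genes tested, 0.392% fell with injection and 0.333% rose. Cd79a, Ms4a1 and Cd79b did not pass, at log2 changes of -1.07 ± 0.250, -1.06 ± 0.317 and -0.67 ± 0.278 and adjusted p of 0.0906, 0.165 and 0.309 in the same test. For each of the 5 genes, both injected libraries were below both controls in CPM, which held for 22.1% of all tested genes. The unadjusted p was under 0.05 for all 5, against 6.84% of tested genes at that p with a negative log2 change and 7.33% with a positive one. The median log2 change of the 5 was -1.07, against 0.00 over all tested genes.

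These calls were not made by the other tools. limma-voom gave Fcer2a and Fcmr adjusted p of 0.0607 and 0.0509, and DESeq2 gave neither gene an adjusted p. The spread behind these p-values has 1 residual degree of freedom a gene. In edgeR it is moderated towards that of all tested genes, with a prior of 9.62 degrees of freedom. It is the departure of these libraries from additive effects, not a spread between animals, and it may be technical.

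None of the 4 class II genes passed for injection, with 0 also at an unadjusted p under 0.05 and 0 by DESeq2 or limma-voom. The log2 changes by edgeR were -0.19 ± 0.106 for Cd74, -0.20 ± 0.130 for H2-Ab1, -0.15 ± 0.134 for H2-Eb1 and -0.10 ± 0.136 for H2-Aa, with adjusted p between 0.455 and 0.791. Their median was -0.17. A p that misses the threshold does not show that class II transcripts were equal.

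The same comparison was made within each genotype, where 1 library stands against 1 and no test is possible. Unless said otherwise, intervals below are exact 95% intervals that cover counting error only, and reads copied by PCR are not independent molecules. In WT mice the 5 B cell surface genes summed to 9.71 CPM in the injected library and 26.0 CPM in the control library, a log2 ratio of -1.42 (-1.67 to -1.18). In mice labelled Irf4-/- they summed to 14.3 CPM in the injected library and 27.5 CPM in the control library, a log2 ratio of -0.94 (-1.16 to -0.72). The sum in each injected library was thus between 0.373 and 0.522 of that in its control.

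By gene, the interval lay below 0 for all 5 in WT mice, where 28% of the 11870 genes whose mean reached 1 CPM had an interval below 0. The WT log2 ratios ran from -0.99 for Cd79b to -2.33 for Fcmr (-3.52 to -1.62). In mice labelled Irf4-/- the interval lay below 0 for 4 of the 5, against 19% of those genes, and the log2 ratios ran from -0.33 for Cd79b (-0.77 to 0.10) to -2.83 for Fcer2a (-4.27 to -2.07). Fcmr was at -1.75 (-2.82 to -1.01) there.

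A rule of size asked for a mean of at least 5 CPM, a ratio of at least 2-fold and an interval that excludes 1. Of the 9 members, 5 had the required mean in the WT pair and 1 of them, Cd79a, was lower in the injected library, at a log2 ratio of -1.35 (-1.82 to -0.95). By this rule 0.789% of 9633 genes were lower in WT injected than in WT control. In the Irf4-/- pair 6 members had the mean and 0 were past the rule, against 0.216% of 9702 genes that were lower in the injected library. Fcer2a and Fcmr lie under the 5 CPM minimum. At a minimum of 1 CPM all 9 members could be called, and 4 were lower in the WT pair (Cd79a, Ms4a1, Fcer2a and Fcmr) and 2 in the Irf4-/- pair (Fcer2a and Fcmr), against 1.71% and 0.885% of all genes under the same rule.

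The class II genes summed to 131.8 CPM in WT injected and 160.2 CPM in WT control, a log2 ratio of -0.28 (-0.36 to -0.21). They summed to 188.8 CPM in Irf4-/- injected and 196.7 CPM in Irf4-/- control, a log2 ratio of -0.06 (-0.13 to 0.01). In the WT pair Cd74 and H2-Ab1 had intervals below 0, at log2 ratios of -0.35 (-0.46 to -0.24) and -0.33 (-0.50 to -0.17). No class II gene had an interval that excluded 0 in the Irf4-/- pair, where the log2 ratios were between -0.13 and -0.03.

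**Figure D2:**
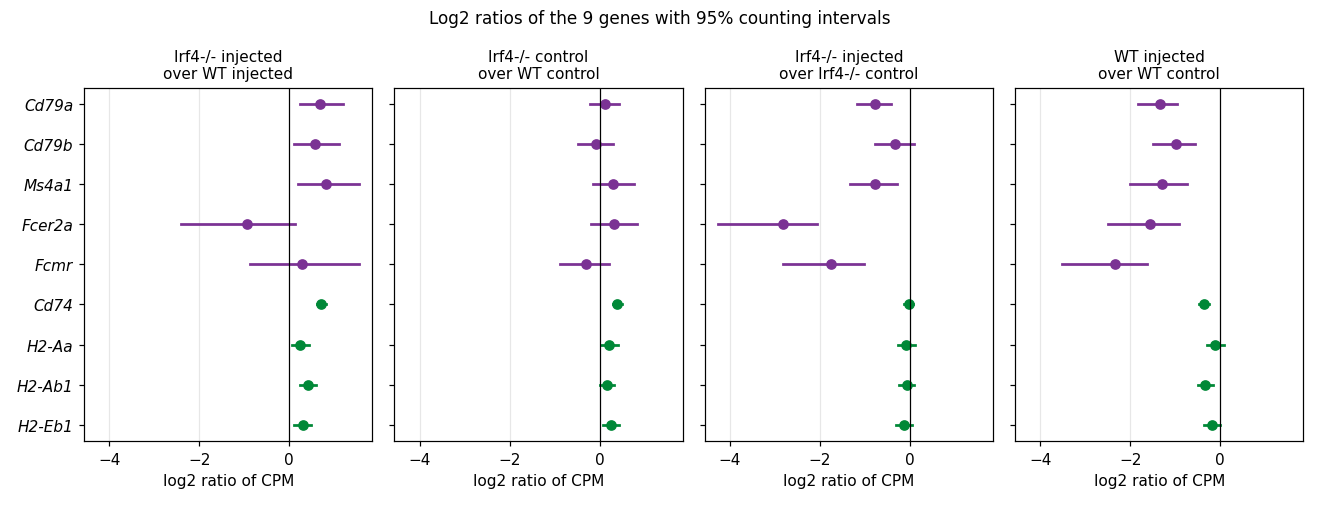
Log2 ratio of CPM for the 9 genes in the 4 pairs of libraries, with exact 95% counting intervals as bars and a line at 0. The B cell surface genes lie between -2.83 and -0.33 in the 2 injected over control pairs, and the class II genes between -0.35 and -0.03.

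The next question was whether these transcripts differed between genotypes. Cd74 rose in libraries labelled Irf4-/-, by 0.55 ± 0.106 on the log2 scale (SE) at an adjusted p of 0.0283 by edgeR's quasi-likelihood test, and 1.22% of 11998 genes rose for genotype while 0.258% fell. Limma-voom also called it, at 0.0375, whereas DESeq2 gave 0.0594. The chains H2-Ab1, H2-Eb1 and H2-Aa had log2 changes of 0.29 ± 0.130, 0.27 ± 0.134 and 0.23 ± 0.136 that did not pass by edgeR, with adjusted p of 0.485, 0.544 and 0.644. The median of the 4 class II genes was 0.28, against 0.00 over all tested genes. At an unadjusted p under 0.05, 1 of the 4 had a positive genotype change, against 6.03% of tested genes with a positive and 4.38% with a negative one.

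The B cell surface genes gave 0 calls for genotype by edgeR, 0 at an unadjusted p under 0.05 and 0 by DESeq2 or limma-voom. Their log2 changes ran from -0.14 ± 0.428 for Fcer2a to 0.55 ± 0.315 for Ms4a1. Their direction was not shared, since Cd79a, Cd79b and Ms4a1 had positive values while Fcer2a and Fcmr had negative ones.

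Within the injected mice, class II counts summed to a log2 ratio of 0.52 (0.44 to 0.59) for Irf4-/- over WT, and the interval lay above 0 for all 4 genes and for 3 of the 5 B cell surface genes. The share of genes with an interval above 0 was 25% there. Cd74 was at 0.72 (0.61 to 0.83). The B cell sum was at 0.56 (0.28 to 0.84), with Ms4a1 at 0.82 (0.20 to 1.56), Cd79a at 0.69 (0.23 to 1.19), Cd79b at 0.58 (0.10 to 1.10), Fcmr at 0.27 (-0.88 to 1.54) and Fcer2a at -0.94 (-2.41 to 0.13).

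Within the control mice, the class II sum had a log2 ratio of 0.30 (0.23 to 0.37) for Irf4-/- over WT, and Cd74, H2-Aa and H2-Eb1 had intervals above 0, against 17.1% of genes. Cd74 was at 0.39 (0.29 to 0.49) and H2-Ab1 at 0.16 (-0.00 to 0.32). The B cell sum was at 0.08 (-0.11 to 0.26), and none of the 5 genes had an interval that excluded 0. By the 2-fold rule 0 members were called in either pair, against 1.78% of 9685 genes in the injected pair and 0.807% of 9660 in the control pair. The control pair does not involve the WT injected library, and the class II values there are smaller than in the injected pair.

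The injection response was also set between genotypes, as the Irf4-/- log2 ratio minus the WT one, which cannot be tested because no residual degree of freedom is left. Intervals of this difference are normal approximations of counting error, not exact ones. They were taken without the prior count of 2, so they are not centred on the values given. It was 0.32 (0.18 to 0.47) for Cd74, 0.26 (0.03 to 0.49) for H2-Ab1, 0.57 (0.03 to 1.14) for Cd79a and 0.66 (0.07 to 1.29) for Cd79b. Fcer2a had the opposite sign, at -1.25 (-2.66 to -0.17). The remaining members had counting intervals that spanned 0. All of these values contain the WT injected library. The share of all genes whose interval excludes 0 was not computed, so the values do not set these members apart from other genes.

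The proportions of the members within a library do not depend on scaling. The B cell surface genes made up 7.05% of the counts of all 9 members in Irf4-/- injected (6.25% to 7.91%), 12.2% in Irf4-/- control (11.2% to 13.4%), 6.86% in WT injected (5.92% to 7.89%) and 13.96% in WT control (12.9% to 15.1%). The intervals of the injected libraries lay apart from those of the controls in both genotypes. There were 18.3 counts of Cd74 for each count of Cd79a in Irf4-/- injected and 10.8 in Irf4-/- control, and 18.2 in WT injected and 8.91 in WT control.

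Within the class II genes the proportions of the chains were close. H2-Eb1 had 0.778 counts for each count of H2-Ab1 in Irf4-/- injected, 0.806 in Irf4-/- control, 0.842 in WT injected and 0.758 in WT control. The share of Cd74 in the class II counts was 52.0% in Irf4-/- injected (50.4% to 53.7%) and 50.9% in Irf4-/- control (49.1% to 52.6%), against 45.3% in WT injected (43.3% to 47.3%) and 47.6% in WT control (45.9% to 49.3%). Its share was thus higher under the Irf4-/- label in both the injected and the control pair, though the intervals of the control pair overlapped.

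Among the B cell surface genes, Ms4a1 kept a nearly even proportion to Cd79a, with 0.550 counts for each count of Cd79a in Irf4-/- injected, 0.554 in Irf4-/- control, 0.492 in WT injected and 0.486 in WT control. Fcer2a did not. It made up 3.37% of the B cell surface counts in Irf4-/- injected (1.55% to 6.30%), against 14.9% in Irf4-/- control (11.7% to 18.6%), 10.6% in WT injected (6.48% to 15.99%) and 12.5% in WT control (9.89% to 15.6%). Fcmr made up 5.62% in Irf4-/- injected (3.18% to 9.10%) and 10.8% in Irf4-/- control (8.01% to 14.04%), and 6.67% in WT injected (3.49% to 11.4%) and 14.2% in WT control (11.4% to 17.4%). The share of Cd79b was instead higher in the injected libraries. It was 33.0% in Irf4-/- injected (27.35% to 38.95%) and 21.7% in Irf4-/- control (17.96% to 25.9%). In WT injected it was 32.2% (25.5% to 39.6%) and in WT control 24.4% (20.8% to 28.2%), where the intervals overlapped.

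**Figure D3:**
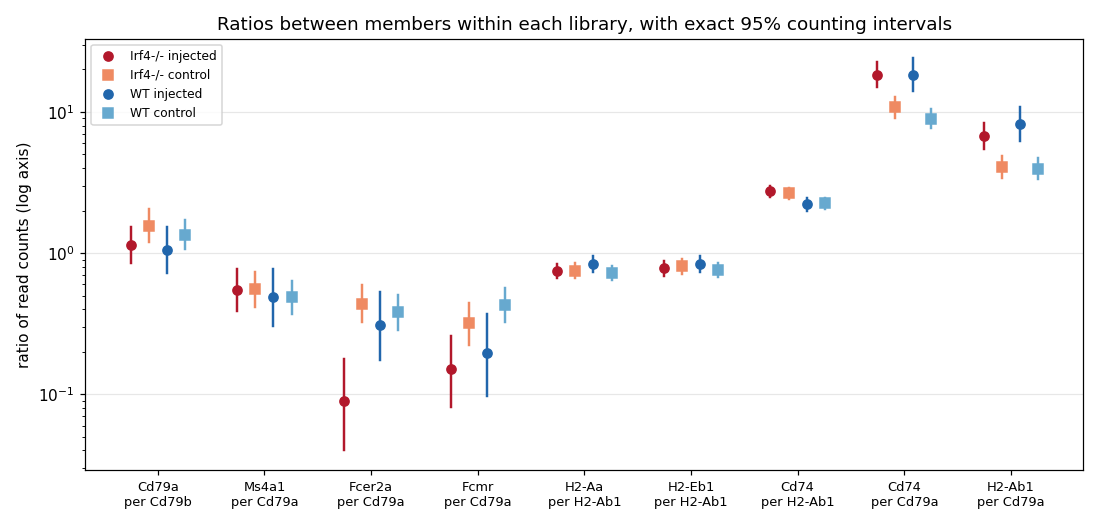
Counts of one member for each count of another within the same library, on a log axis, with exact 95% intervals as bars and 1 point a library. The ratio of Fcer2a to Cd79a is lowest in Irf4-/- injected, at 0.0900, and Cd74 to Cd79a is higher in both injected libraries, at 18.3 and 18.2, than in the controls.

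Other B cell genes were taken from a list of 22 markers. Of the 20 tested by edgeR, 0 passed for injection, and the median log2 change was -0.75. At an unadjusted p under 0.05, 8 had a negative log2 change and 0 a positive one, against 6.84% and 7.33% of tested genes. DESeq2 called 1 and limma-voom 0. Cd22, an inhibitory receptor of B cells, had 535 counts in Irf4-/- injected, 534 in Irf4-/- control, 314 in WT injected and 728 in WT control. Its log2 change for injection by edgeR was -0.62 ± 0.180 (adjusted p of 0.158). The others of the 4 most abundant markers lay nearer 0. They were Cd37 at -0.06 ± 0.111, Cd72 at 0.01 ± 0.094 and Tnfrsf13c at -0.07 ± 0.250.

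The summed level of this list was 644.6 CPM in Irf4-/- injected, 667.4 in Irf4-/- control, 597.1 in WT injected and 680.3 in WT control. Most of it was Cd37, with 415.5 to 467.1 CPM, and Cd72, with 113.4 to 137.3 CPM, so the sum says little of the other markers. In single pairs, 15 of the 19 markers with a mean of at least 1 CPM had an interval below 0 in the WT injected over control pair and 0 above, with a median log2 ratio of -0.98, against 28% of the 11870 genes with an interval below 0. In the Irf4-/- injected over control pair 8 of the 19 lay below 0 and 0 above, with a median of -0.47, against 19% of those genes.

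Of 9 immunoglobulin constant region and J chain genes with counts, 6 were tested for each effect. For injection 0 passed by edgeR, the median log2 change was -1.36, and DESeq2 called 0 and limma-voom 1. By edgeR 3 had a negative log2 change at an unadjusted p under 0.05 and 0 a positive one, against 6.84% and 7.33% of tested genes. Igkc, the kappa light chain, had 46 counts in Irf4-/- injected, 212 in Irf4-/- control, 140 in WT injected and 208 in WT control. Ighm, the IgM heavy chain, did not share this order, with 4062 counts in Irf4-/- injected, 3017 in Irf4-/- control, 3572 in WT injected and 4109 in WT control. For genotype 1 gene, the IgG2b heavy chain Ighg2b, fell by edgeR at an adjusted p of 0.0141, with 0 counts in Irf4-/- injected and 1 in Irf4-/- control, against 37 in WT injected and 22 in WT control. Limma-voom also called 1 gene of the list for genotype and DESeq2 called 0, and 0.258% of all tested genes fell by edgeR.

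B cell receptor signalling genes gave 0 calls for injection among 22 tested by edgeR, 1 by DESeq2 and 0 by limma-voom. By edgeR 5 were negative and 0 positive at an unadjusted p under 0.05, against 6.84% and 7.33% of tested genes. The median log2 change of the list was -0.15. The most abundant, Syk, Inpp5d, Vav1 and Malt1, are signalling genes that NK cells use too.

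The further class II genes include those of the loading factors H2-DM and H2-O and the lysosomal enzymes that process antigen and invariant chain. Of 13 tested by edgeR, 0 passed for injection and 0 for genotype, and DESeq2 and limma-voom called 0 in both. At an unadjusted p under 0.05, 2 were positive and 1 negative for injection, against 7.33% and 6.84% of tested genes. For genotype 3 were positive and 1 negative, against 6.03% and 4.38%. Their median log2 change for injection was 0.21, against -0.17 for the 4 class II members. H2-DMa had 548 counts in Irf4-/- injected, 403 in Irf4-/- control, 447 in WT injected and 340 in WT control, and Ctss, the protease cathepsin S that cleaves invariant chain, had 1169 in Irf4-/- injected, 802 in Irf4-/- control, 894 in WT injected and 931 in WT control. In CPM, H2-DMa was higher in each injected library than in its control, unlike H2-Aa, H2-Ab1 and H2-Eb1. It had 29.4 in Irf4-/- injected, 25.3 in Irf4-/- control, 24.1 in WT injected and 16.1 in WT control. Its log2 change for injection did not pass by edgeR, at 0.40 ± 0.151 and an adjusted p of 0.264. H2-Ob, Ifi30, H2-DMb2 and March1, named after their values were seen, had negative changes.

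The 8 genes of class II transcription gave 0 calls for either effect by edgeR, DESeq2 and limma-voom. For injection 2 were negative and 0 positive at an unadjusted p under 0.05 by edgeR, against 6.84% and 7.33% of tested genes. For genotype 0 passed at that p. Ciita, named here after its values were seen, had 58 counts in Irf4-/- injected, 94 in Irf4-/- control, 52 in WT injected and 103 in WT control. Its log2 change by edgeR was -0.86 ± 0.283 for injection (adjusted p of 0.208) and 0.22 ± 0.282 for genotype (adjusted p of 0.888). In CPM both injected libraries were below both controls for Ciita, as they were for each B cell surface gene. This order is common, since it held for 22.1% of all tested genes. In the same list Nfya, Nfyc and Rfxank, also named after their values were seen, had it too.

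Macrophages and dendritic cells also carry class II. The 16 monocyte and macrophage genes summed to 80.6 CPM in Irf4-/- injected and 65.1 CPM in Irf4-/- control, and to 99.2 CPM in WT injected and 41.9 CPM in WT control. Of 14 tested by edgeR for injection, Vcam1, an adhesion molecule of splenic macrophages, and C1qc, a complement chain, rose by 1.997 ± 0.290 and 1.78 ± 0.331 on the log2 scale at adjusted p of 0.0172 and 0.0429. Lyz2, the lysozyme of myeloid cells, fell by 1.26 ± 0.193 at an adjusted p of 0.0198. Of all tested genes 0.333% rose and 0.392% fell with injection by edgeR. DESeq2 called 2 genes of the list for injection and limma-voom 3. At an unadjusted p under 0.05 by edgeR, 9 were positive and 1 negative, against 7.33% and 6.84% of tested genes. The median of the list was 1.14 for injection and 0.01 for genotype. The part of these cells in the class II levels was not tested.

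The dendritic cell list of 12 genes summed to 1905 CPM in Irf4-/- injected and 1843 CPM in Irf4-/- control, against 1198 CPM in WT injected and 1441 CPM in WT control. Itgax and Irf8, both of which NK cells also express, made up most of it, with 680.8 to 1246 CPM and 494.2 to 708 CPM. Of 6 tested by edgeR, 0 passed for genotype, and DESeq2 called 1 and limma-voom 0. By edgeR 3 were positive and 0 negative at an unadjusted p under 0.05, against 6.03% and 4.38% of tested genes. The sum was higher in both libraries labelled Irf4-/- than in both WT libraries, as were the levels of Itgax, Irf8 and Cd74. Since Itgax and Irf8 made up most of the sum, it says little of the other dendritic cell genes. The part of these genes in the Cd74 difference was not tested.

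For genotype, the lists of further B cell markers, B cell receptor signalling and macrophage genes had 0 calls by edgeR, DESeq2 and limma-voom. Of their 20, 22 and 14 tested genes, 2, 3 and 1 were positive at an unadjusted p under 0.05. Negative at that p were 1, 1 and 0. The shares of all tested genes were 6.03% positive and 4.38% negative. For injection the dendritic cell list had 0 by all 3 tools and at that p. The erythroid, T cell, NK cell and plasma cell lists had 0 calls by edgeR for either effect among the genes tested, and also 0 by DESeq2 and limma-voom. Erythroid genes summed to 109.2 CPM in Irf4-/- injected, 46.2 in Irf4-/- control, 19.1 in WT injected and 38.2 in WT control. For genotype 4 of 6 were positive and 0 negative at an unadjusted p under 0.05, against 6.03% and 4.38% of tested genes. T cell genes summed to between 406.2 and 455.9 CPM, and most of this was Trbc1, with 290.6 to 314 CPM. Plasma cell genes summed to between 171.3 and 202 CPM with Tnfrsf17 at 0 in every library. Most of that sum was Prdm1, with 86.3 to 130.2 CPM, and Xbp1, with 68.05 to 91.1 CPM. Both sums thus say little of the other genes in their lists. Neutrophil genes summed to between 0.214 and 0.917 CPM with Retnlg at 0 and no gene of that list tested. T cell genes had 1 of 10, negative, at an unadjusted p under 0.05 for genotype and 0 for injection. The 13 NK cell genes had 3 positive for genotype, and 1 positive and 2 negative for injection. The plasma cell genes had 0 and 0 of 3. For injection 7.33% of tested genes were positive and 6.84% negative at that p. In libraries from bulk cells, fewer cells of a type and less RNA per cell cannot be told apart.

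**Figure D4:**
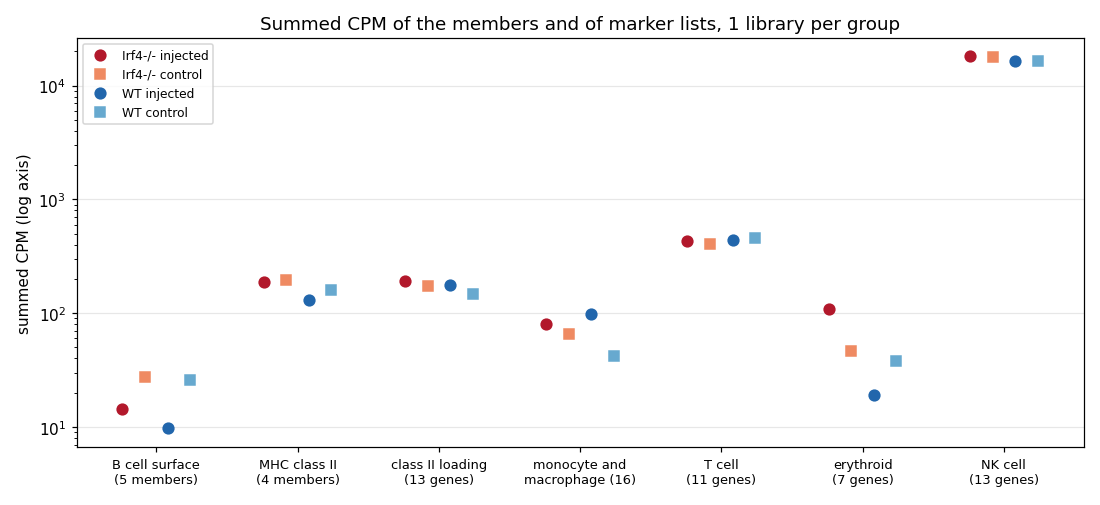
Summed CPM of the member sets and of marker lists in the 4 libraries, on a log axis, with 1 point a library. The B cell surface genes sum to 14.3 and 27.5 CPM in Irf4-/- injected and control and to 9.71 and 26.0 CPM in WT injected and control, while the NK cell list stays between 16320 and 18050 CPM.

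Profiles over the 4 libraries most like the mean of each set were looked for among the 9132 protein-coding genes whose mean reached 5 CPM, by the root mean square difference of centred log2 CPM. Nearest to the B cell surface set were Dnaja1 at 0.160, Mdk at 0.161, Dnajb1 at 0.163, Sorbs3 at 0.168 and Slc5a3 at 0.185. Dnaja1, a co-chaperone of the heat shock protein HSP70, had 178.7 CPM in Irf4-/- injected, 447.4 in Irf4-/- control, 187.5 in WT injected and 518.4 in WT control. Dnajb1, another such co-chaperone, had 85.8 CPM in Irf4-/- injected, 192.4 in Irf4-/- control, 83.1 in WT injected and 239.5 in WT control. These genes were thus lower in both injected libraries, like the B cell surface genes.

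Nearest to the class II set were Lipa at 0.0148, Sh3bp2 at 0.0224, Klra3 at 0.0225, Zbp1 at 0.0276 and Zfp948 at 0.0279. Lipa, the lysosomal acid lipase, had 51.3 CPM in Irf4-/- injected, 53.4 in Irf4-/- control, 38.9 in WT injected and 45.3 in WT control. Reads of Klra3 may belong to near-identical Ly49 receptor genes, so its value is uncertain. With 4 points a profile, likeness of this kind is a description of these libraries.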

How the data were processed

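Per the labels' protocols, libraries were made with a SMARTER mRNA kit from sorted splenic NK cells. The deposited values are raw read counts of genes and FPKM. Dividing each of the 72455 nonzero counts by its library total and its FPKM gave a gene length that was whole within 0.01 bp. Per the submitters' processing notes, TopHat, edgeR and mm10 were used. Counting tool, annotation and strand setting: not given in the sources used here. Where genes overlap, the assignment of reads is uncertain.

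Of 35275 identifiers, 34490 matched a GENCODE symbol on GRCm38, the assembly that mm10 denotes. Counts were scaled by TMM factors in edgeR 4.0.16 on R 4.3.3, from genes that reached 1 CPM in 2 or more libraries. Library pairs were compared as log2 ratios of CPM with a prior count of 2 and exact Clopper-Pearson 95% intervals. The two-sided quasi-likelihood test of edgeR used additive genotype and injection terms, with 1 residual degree of freedom and a prior of 9.62 degrees of freedom. Benjamini-Hochberg adjustment was over 11998 genes at 0.05. DESeq2 1.42.0 and limma 3.58.1 (voom) were alternatives. The scripts were tested on simulated data.

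The members and gene lists were chosen with earlier results of these data known. The text names all members, up to 4 genes of highest mean CPM in each list and those called, and the 5 nearest profiles of each set. Other genes are said to be chosen after their values were seen. Totals of 15878159 to 21104881 counts set the precision.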

Additional observations from a re-analysis of the deposited data

Results flagged for a closer look

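For 3 members the genotype difference had opposite signs in injected and in control mice. This difference was not tested, since each group has 1 library. Cd79b had a log2 ratio of Irf4-/- over WT of 0.58 (counting interval 0.10 to 1.10) in injected mice and -0.084 (-0.48 to 0.30) in control mice. Fcer2a was at -0.94 (-2.41 to 0.13) in injected mice and 0.32 (-0.19 to 0.83) in control mice. Fcmr was at 0.27 (-0.88 to 1.54) in injected mice and -0.31 (-0.87 to 0.22) in control mice. Among the 6 values, the interval excluded 0 only for Cd79b in injected mice.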

How the results depend on the processing

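No paired analysis was possible because each group has 1 library. Leaving out WT injected leaves the additive test with no residual degree of freedom. Counting depth limits Fcer2a and Fcmr, with 9 to 78 counts a library. The number of members called for genotype, 1 as reported, was 0 with DESeq2 and 0 with injection left out, and for Cd74 the adjusted p was 0.329 with injection left out. For injection, 2 members as reported became 4 with no filter and 4 with TMM factors from all genes, a setting chosen after seeing the data. It became 0 at a mean of at least 5 CPM, where Fcer2a and Fcmr were not tested, and 0 with DESeq2, limma-voom or genotype left out (adjusted p of 0.428 and 0.294 for Fcer2a and Fcmr). The settings with 4 added Cd79a and Ms4a1, at adjusted p of 0.00062 and 0.0176 with no filter and 0.00466 and 0.0492 with all-gene factors. Cd79a also passed with upper quartile (0.0482) and library total scaling (0.0334). For Fcer2a, the genotype log2 change turned to 0.058 with injection left out. Of all genes, 177 were called for genotype, with 82.5% of them higher, against 445 with all-gene factors (67.2% higher), 478 with no filter (68.2%), and 5 with injection left out. For injection 87 were called, against 213 with upper quartile and 275 with library total scaling, 614 with no filter, 591 with all-gene factors, 235 at an adjusted p under 0.1 and 0 with genotype left out. At 1.5-fold, 1 member passed the size rule in Irf4-/- injected over WT injected and 1 in Irf4-/- injected over control, where the 2-fold rule gave 0. Among all genes, 686 of 9685 and 258 of 9702 passed at 1.5-fold in these pairs. A minimum of 1 CPM gave 2 in Irf4-/- injected over control and 4 in WT injected over control. A minimum of 20 CPM gave 0 in the WT pair, but no B cell surface gene reached it, so none could be called. From FPKM, the share of the B cell surface genes was 5.58% in Irf4-/- injected, 9.41% in Irf4-/- control, 5.33% in WT injected and 10.95% in WT control. Of the members' pair ratios under alternatives, 283 moved within their interval and 5 beyond it, all 5 with a pseudocount of 1 on FPKM. The causes were not tested.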
